A study of Mus musculus with 26 samples.

Results

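A set of 10 genes that report on and restrain the mitogen-activated protein kinase (MAPK) pathway, Dusp4, Dusp6, Spry1, Spry2, Spry4, Spred1, Spred2, Etv1, Etv4 and Etv5, was followed across 7 groups of mouse neural stem cell arrays. They were taken by name, out of 23152 genes that could be measured. A probe set, the array's unit of measurement for a short stretch of a gene, was used where its annotation named 1 of these genes and no other. This gave 95 of the 269751 probe sets: 7 for Dusp4, 6 for Dusp6, 7 for Spry1, 4 each for Spry2 and Spry4, 12 each for Spred1 and Spred2, 11 for Etv1, 17 for Etv4 and 15 for Etv5. A gene's level was the mean log2 signal of its probe sets.

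All cells were neural stem cells of C57BL6 wild-type mouse embryos at embryonic day 14.5, all carried a lentiviral transgene, and total RNA was read on Affymetrix arrays. The series asked what overexpressed MYBQKI does in these cells and what suppression of their own Qk adds. MYBQKI joins the transcription factor MYB to QKI, an RNA-binding protein whose mouse gene is Qk, and this fusion is known from angiocentric glioma. The first set had 18 arrays: eGFP, the control, was read in pools 1, 2 and 3 with 2 repeats each, and the constructs MYBtr, MYBQKI5, MYBQKI6 and QKItr were read once in each pool, which gave 3 arrays per construct. In a separate set of 8 arrays, cells that all carried MYBQKI6 had either Qk suppressed (5 samples) or LacZ, a bacterial gene the cells lack, suppressed as the control (3 samples). QKI5 and QKI6 are names of QKI splice forms, while the meaning of tr, the makeup of a pool and the promoter of the transgenes are not stated in the labels. The lentivirus reached a culture of unknown purity, so in these bulk samples fewer cells of a type and less RNA per cell cannot be told apart.

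In the MAPK pathway, growth factor receptors act through RAS and the kinases RAF and MEK on ERK, which enters the nucleus and switches on early response genes. Among those genes are inhibitors of the same cascade. Sprouty (Spry) and Spred proteins act on the steps around RAS and RAF, while the dual-specificity phosphatases Dusp6, in the cytoplasm, and Dusp4, in the nucleus, remove activating phosphates from MAP kinases. Etv1, Etv4 and Etv5 form the PEA3 group of ETS transcription factors, which are raised by fibroblast growth factor (FGF) signalling and carry its output in neural progenitors. In textbook accounts the repressor CIC holds the Etv genes and some of the inhibitors down until ERK relieves it.

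The sequence just upstream of the transcription start was looked at for 7 members, with 9 start sites, for which RefSeq windows on GRCm38.p6 were at hand. Dusp4, Spry4 and Etv4 were not among them. In each window the 250 bases before the start were searched on both strands for the MYB core AACNG, the longer MYB element AACTGNC (which holds the core), the ETS core CCGGAAGT, the CIC octamers TGAATGAA and TGAATGGA, and the AP-1 element TGANTCA. Spry1, which gave the largest difference of all members, is shown beside Dusp6, whose mean difference was near 0 with pools of opposite sign, and beside Spry2, a Sprouty gene with a small difference. Matches to the MYB core on either strand are in capitals. The window of Spry1 is chr3:37639697-37639946 on the plus strand, that of Dusp6 is chr10:99262981-99263230 on the plus strand, and that of Spry2 is chr14:105896820-105897069 on the minus strand.
Spry1: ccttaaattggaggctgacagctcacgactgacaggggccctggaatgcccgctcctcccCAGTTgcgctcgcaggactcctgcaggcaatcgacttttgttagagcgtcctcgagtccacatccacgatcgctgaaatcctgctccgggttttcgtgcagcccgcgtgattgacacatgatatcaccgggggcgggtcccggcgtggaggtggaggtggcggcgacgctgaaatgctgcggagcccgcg
Dusp6: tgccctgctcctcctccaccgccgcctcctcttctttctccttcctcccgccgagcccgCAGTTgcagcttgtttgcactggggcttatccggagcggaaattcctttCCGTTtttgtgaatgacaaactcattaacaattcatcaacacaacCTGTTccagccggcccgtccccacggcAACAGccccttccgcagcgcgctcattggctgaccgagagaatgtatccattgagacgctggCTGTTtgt
Spry2: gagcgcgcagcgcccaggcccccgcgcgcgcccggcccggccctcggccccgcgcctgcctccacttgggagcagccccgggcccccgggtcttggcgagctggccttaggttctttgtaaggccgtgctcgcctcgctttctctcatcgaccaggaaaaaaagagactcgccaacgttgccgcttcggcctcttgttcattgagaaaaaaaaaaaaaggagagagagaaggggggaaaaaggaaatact
The Spry1 window held 1 MYB core, which begins 190 bases before the start. The Dusp6 window held 5, and the Spry2 window held none. Of the 9 member windows 8 had at least 1 core, and 74.2% of all 32851 mouse windows of this length had one. The longer MYB element stood in 1 of the 9 member windows, that of an Etv1 start, and in 10.6% of all windows. None of the 9 windows held the ETS core, a CIC octamer or the AP-1 element, which were present in 2.88%, 2.07% and 6.75% of all windows. A missing match says only that these letters are not in this stretch, and a match does not mark a bound site.

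Before the members, the labels were compared with the genes the constructs carry. Myb signal was 4.62 ± 0.49 (SD, n = 3 pools) with eGFP and 7.23 ± 0.12 with MYBtr, 6.99 ± 0.31 with MYBQKI5 and 7.46 ± 0.40 with MYBQKI6, and 4.86 ± 0.42 with QKItr. Qk signal was 11.43, 10.98 and 10.69 in pools 1, 2 and 3 with QKItr and 10.95, 10.78 and 10.61 with eGFP, higher in each pool, with a difference of 0.25 (95% confidence interval -0.12 to 0.61) that was not called in limma (adjusted p = 1.0, or 0.99 with the pool block). With MYBQKI5 and MYBQKI6 Qk differed from eGFP by -0.10 and -0.11, also not called, so Qk signal does not check the labels of the QKI constructs. Whether the Qk probe sets read the QKI part of a construct was not tested. Of the neural stem cell markers 6 of 7 lay above the median gene in eGFP cells, as did 5 of 6 markers of oligodendrocyte precursors, 5 of 6 of astrocytes, 3 of 6 of neurons, 1 of 6 of microglia and 2 of 6 of vascular cells and fibroblasts. Prom1, a stem cell surface marker, was the stem cell marker below that median, at 3.47 ± 0.19. Array medians ran from 5.61 to 5.74 in the first set and from 5.39 to 5.51 in the second, so levels were compared within a set only. The number of arrays limits the precision throughout. A gene was called where its Benjamini-Hochberg adjusted p over all 23152 genes was under 0.05 in limma, a linear model with variances shared across genes.

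Spry4 and Spry1, which encode feedback inhibitors of receptor signalling, and Etv4, a PEA3 group factor, were lower in cells with MYBtr, MYBQKI5 or MYBQKI6 than in eGFP cells, in all 9 of the construct and pool combinations for each gene. Taken over the 3 MYB constructs, the difference on the log2 scale was -1.15 for Spry1, -0.80 for Spry4 and -0.61 for Etv4, which are 2.22-fold, 1.74-fold and 1.53-fold lower signal. Spry4 was called in limma without a term for pools, and all 3 were called once the pool was a block in the fit. The remaining 7 members, Dusp4, Dusp6, Spry2, Spred1, Spred2, Etv1 and Etv5, were called against eGFP in neither fit. Of these, Spry2 was also lower in all 9 combinations, so this count does not mark out the called genes. The share of all genes that were lower in all 9 was not counted.

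Without the pool block the 3 MYB constructs together gave 1 call among the 10 members, where 2.00% of all genes were called, and no member was called with MYBtr alone (1.37% of all genes), MYBQKI5 alone (0.199%) or MYBQKI6 alone (0.765%). With the pool as a block 3 of 10 members were called for the constructs together, where 7.07% of all genes were called, and Spry1 and Spry4, 2 of 10, were called with MYBtr (5.97%), MYBQKI5 (2.63%) and MYBQKI6 (4.39%). The median difference of the 10 members for the 3 constructs together was -0.16, beside -0.01 over all genes, and 9 of the 10 had a negative sign. The 9 include Dusp6, whose pools went opposite ways, and the share of all genes with a negative sign was not counted. The comparisons with eGFP share the same eGFP arrays, so the constructs are not independent of each other in this respect.

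**Figure D1:**
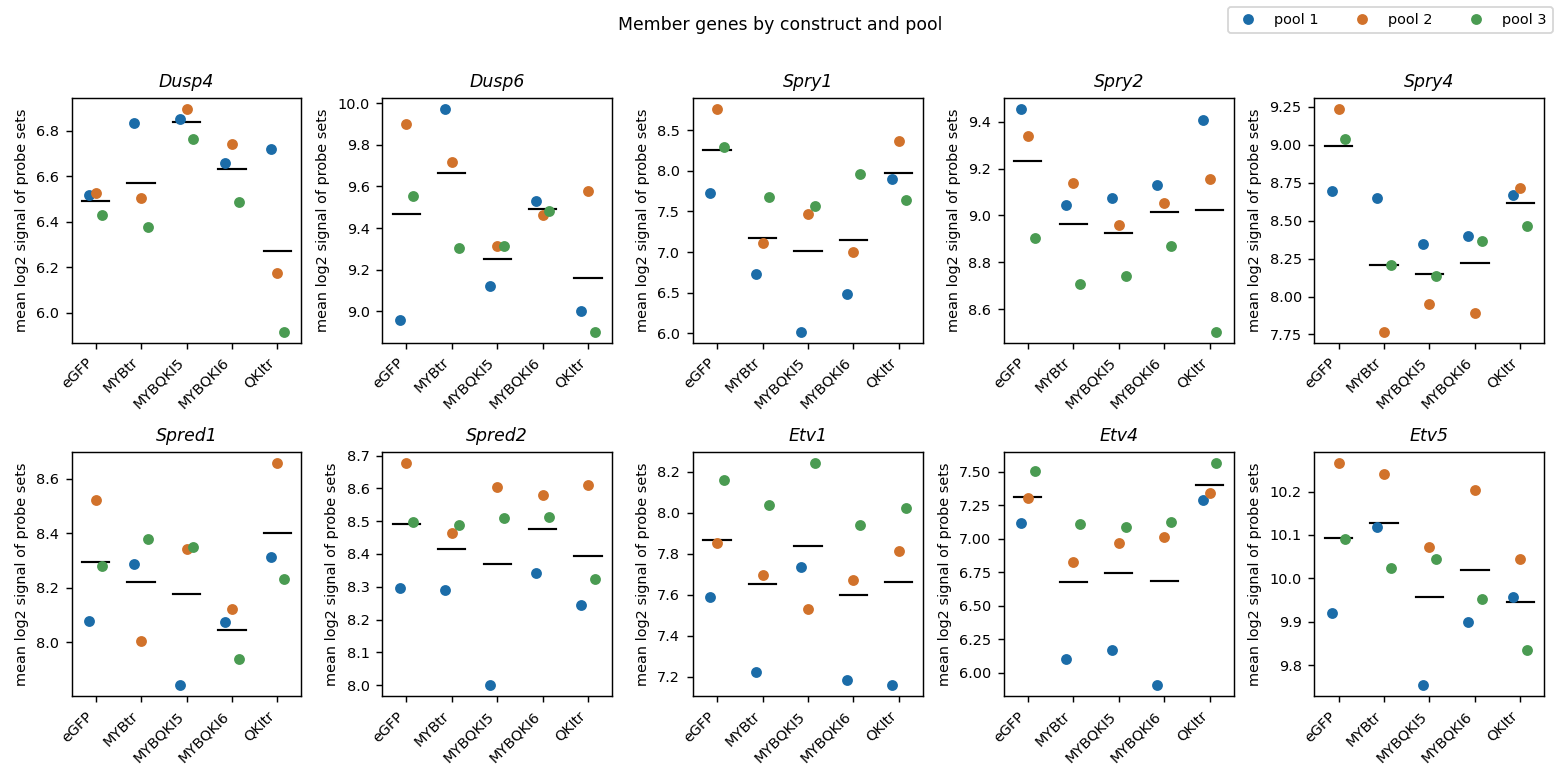
Mean log2 signal of the probe sets of each of the 10 members, 1 panel per gene with its own axis range, by construct; points are pools 1 to 3 (eGFP: mean of 2 repeat arrays), coloured by pool, and black lines are group means. In the Spry4 panel the 9 points with a MYB construct lie between 7.77 and 8.65, below the eGFP points at 8.70 to 9.24.

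The Sprouty genes come first. Spry4 signal in the 3 eGFP pools was 8.70, 9.24 and 9.04. With MYBtr it was 8.65, 7.77 and 8.21 in pools 1, 2 and 3, with MYBQKI5 8.35, 7.95 and 8.14, and with MYBQKI6 8.40, 7.89 and 8.37. Every MYB construct value lay under every eGFP value, although MYBtr in pool 1 came within 0.05 of its own control. Spry4 was the single member of 10 with such a separation. How many of all genes separate in this way was not counted, so it does not set Spry4 apart from genes at large. QKItr cells gave 8.67, 8.71 and 8.47 in pools 1, 2 and 3, of which the first 2 were above all 9 MYB construct values and the last above 8 of them. The highest MYB construct value, 8.65, was close to the first. QKItr was also below the eGFP control of its own pool each time, by differences of -0.03, -0.52 and -0.58. The difference for the 3 MYB constructs together was -0.80 with a standard error (SE) of 0.18 and a 95% confidence interval of -1.18 to -0.42 (limma adjusted p = 0.031, or 0.0074 with the pool block).

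Construct by construct, the Spry4 difference from eGFP was -0.78 for MYBtr, -0.85 for MYBQKI5 and -0.77 for MYBQKI6, with an SE of 0.22. These had limma adjusted p of 0.116, 0.172 and 0.163, and of 0.033, 0.040 and 0.043 with the pool block. Pool 2 showed the largest gaps, of -1.47, -1.29 and -1.35, and pool 1 the smallest, of -0.05, -0.35 and -0.30. The Spry4 call of the 3 constructs together was lost without MYBQKI5 in pool 2 (adjusted p = 0.057) or pool 3 (0.056), without MYBQKI6 in pool 2 (0.053), and without the eGFP control of pool 1 (0.055), pool 2 (0.23) or pool 3 (0.14). With the pool block it held without pool 1 (0.013) and was lost without pool 2 (0.16) or pool 3 (0.084). Without pool 2 the difference was -0.52 for the 3 constructs together, -0.44 for MYBtr and -0.49 for MYBQKI6. With the block, single-construct Spry4 calls held only for MYBtr without pool 1 (0.037).

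Spry1 had the larger difference and the larger spread. The eGFP pools gave 7.72, 8.76 and 8.29. With MYBtr the pools gave 6.73, 7.11 and 7.68, with MYBQKI5 6.02, 7.47 and 7.56, and with MYBQKI6 6.49, 7.00 and 7.96. Of these 9 values 8 were under the lowest eGFP value, and the exception was MYBQKI6 in pool 3. QKItr cells, at 7.90, 8.38 and 7.64, overlapped both sides. The difference over the 3 MYB constructs was -1.15 (SE 0.36, 95% confidence interval -1.92 to -0.38), with a limma adjusted p of 0.151, or 0.0089 with the pool block.

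With single constructs the Spry1 difference from eGFP was -1.09 for MYBtr, -1.24 for MYBQKI5 and -1.11 for MYBQKI6, with an SE of 0.44. They were not called without the block (limma adjusted p = 0.389, 0.456 and 0.448) and were called with it (0.045, 0.041 and 0.0499). Spry1 differed least in pool 3, by -0.61, -0.73 and -0.33. The block call of the 3 constructs together held without pool 3 (adjusted p = 0.0025) and was lost without pool 1 (0.089) or pool 2 (0.18), and the Spry1 calls of each construct with the block also held without pool 3 and were lost without pool 1 or pool 2.

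Spry2, another Sprouty gene, differed far less. Its eGFP pools gave 9.45, 9.34 and 8.90, and its 9 MYB construct values ran from 8.71 to 9.14. All 9 were under the control of their own pool, yet 3 of the 9 were under the lowest eGFP value. The difference of the 3 constructs together was -0.26 (95% confidence interval -0.64 to 0.11) and was not called (limma adjusted p = 0.81, or 0.17 with the pool block). QKItr cells spanned 8.50 to 9.41 in Spry2 signal. Pools, not constructs, took most of the Spry2 variance: 66.1% lay between pools and 17.5% between constructs, whereas for Spry4 the shares were 6.08% and 65.9%, and for Spry1 29.0% and 49.4%.

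Spred1 and Spred2, relatives of Sprouty that bind neurofibromin and thereby restrain RAS, were close to the control. Spred1 signal was 8.08, 8.52 and 8.28 in the eGFP pools and 7.84 to 8.38 with a MYB construct, with 6 of 9 values under the control of their own pool. Spred2 signal was 8.30, 8.68 and 8.50 with eGFP and 8.00 to 8.60 with a MYB construct, again with 6 of 9 under their own control. Both genes therefore overlapped their control range. The differences over the 3 constructs were -0.15 for Spred1 (95% confidence interval -0.45 to 0.16) and -0.07 for Spred2 (-0.36 to 0.22). Neither was called, and both intervals end short of the differences measured for Spry4 and Spry1. The Spred1 interval still overlaps the intervals of Spry4 and Spry1, and the genes were not tested against each other. Of the Spred2 variance, 72.2% lay between pools.

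Neither phosphatase gene was called against eGFP, and they differed from each other in pattern. Dusp6 signal was 8.96, 9.90 and 9.55 in the eGFP pools, 9.97, 9.72 and 9.31 with MYBtr, 9.12, 9.31 and 9.31 with MYBQKI5, 9.53, 9.46 and 9.48 with MYBQKI6, and 9.00, 9.58 and 8.90 with QKItr. The pools went opposite ways. In pool 1, Dusp6 was above its control by 1.02 with MYBtr, 0.17 with MYBQKI5 and 0.57 with MYBQKI6, while all 6 MYB values of pools 2 and 3 were below theirs. The difference over the 3 constructs was -0.00 (95% confidence interval -0.41 to 0.41, limma adjusted p = 1.0), and this mean joins pools of opposite sign.

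Dusp4 had a positive difference over the 3 MYB constructs, of 0.19, and the other 9 members did not. Its eGFP pools gave 6.52, 6.53 and 6.43, and the 3 MYBQKI5 values, 6.85, 6.90 and 6.77, all lay above them, by 0.33, 0.37 and 0.34 within their pools. MYBtr gave 6.83, 6.50 and 6.38 and MYBQKI6 gave 6.66, 6.74 and 6.49, both of which overlapped the control. The MYBQKI5 difference of 0.35 (95% confidence interval -0.04 to 0.73) was not called (limma adjusted p = 0.84, or 0.27 with the pool block). The 2 eGFP repeats of a pool differed by up to 0.40 in Dusp4 signal, more than this difference. That largest gap lay in pool 3, whose first repeat, at 6.23, was below all other eGFP arrays. A gap between 2 single arrays is not the spread of a mean over pools. For Spry4 the repeats differed by at most 0.05.

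Of the PEA3 group factors, Etv4 had the largest difference from eGFP with the MYB constructs. Etv4 signal was 7.12, 7.30 and 7.51 in the eGFP pools. It was 6.10, 6.83 and 7.11 with MYBtr, 6.17, 6.97 and 7.09 with MYBQKI5 and 5.91, 7.01 and 7.13 with MYBQKI6. Pool 1 carried the largest gaps, of -1.02, -0.95 and -1.21, and 8 of the 9 values were under the lowest eGFP value. QKItr cells gave 7.29, 7.35 and 7.57, each above its own control. Over the 3 MYB constructs the Etv4 difference was -0.61 (SE 0.27, 95% confidence interval -1.18 to -0.04), with a limma adjusted p of 0.445, or 0.019 with the pool block. No single construct was called for Etv4, with block adjusted p of 0.053 for MYBtr, 0.127 for MYBQKI5 and 0.065 for MYBQKI6. The call with the block was lost without pool 1 (difference -0.38, adjusted p = 0.068), pool 2 (0.096) or pool 3 (0.070).

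Etv1 and Etv5 gave smaller differences. Etv1 signal was 7.59, 7.85 and 8.16 with eGFP and 7.18 to 8.24 with a MYB construct, and 7 of 9 values were below their own control. Etv5 signal was 9.92, 10.27 and 10.09 with eGFP and 9.75 to 10.24 with a MYB construct, and 8 of 9 were below their own control. Both ranges overlapped the control. The differences over the 3 constructs were -0.17 for Etv1 (95% confidence interval -0.66 to 0.32) and -0.06 for Etv5 (-0.30 to 0.18), neither of them called. Of the Etv1 variance, 75.2% lay between pools and 10.7% between constructs, and its eGFP repeats differed by up to 0.64.

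**Figure D2:**
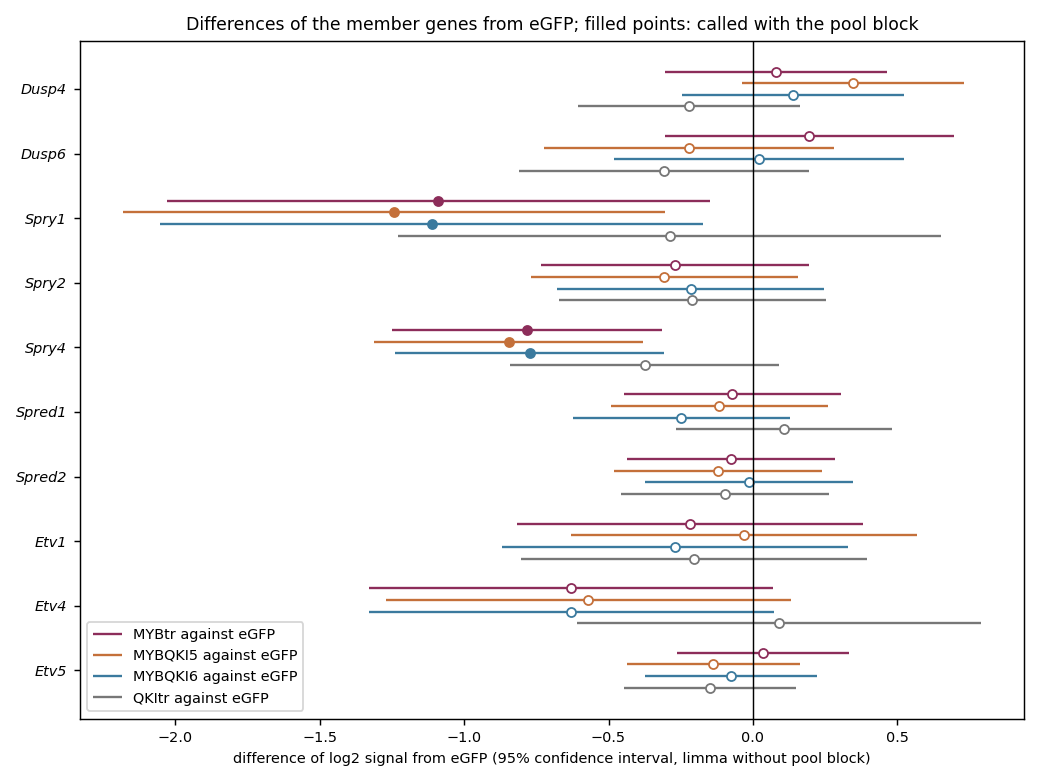
Difference of log2 signal from eGFP for each member and construct, with the 95% confidence interval of the limma fit without a pool block as a line; filled points were called with the pool as a block. Filled points are those of Spry1 and Spry4 for MYBtr, MYBQKI5 and MYBQKI6, between -0.77 and -1.24, and no QKItr point is filled.

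With QKItr, the construct without MYB in its name, no member was called against eGFP in either fit. Its differences from eGFP ran from -0.37 for Spry4 (95% confidence interval -0.84 to 0.09) to 0.11 for Spred1 (-0.27 to 0.48). Spry1 was at -0.29 (-1.23 to 0.65) and Etv4 at 0.09 (-0.61 to 0.79). The intervals of Spry1 and Spry4 each hold the difference of that gene over the 3 MYB constructs. The Etv4 interval begins at about the Etv4 difference over those constructs. Over all genes limma called 0% with QKItr, none with the pool block either, while 362 genes had an unadjusted p under 0.05 without the block and 1064 with it.

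The direct comparison of the 3 MYB constructs together with QKItr was added after the data were seen. Without the pool block no member was called, where 2.95% of all genes were. With the block 3 of 10 members were called, where 10.4% of all genes were: the difference was -0.70 for Etv4 (limma adjusted p with the block = 0.0064), -0.86 for Spry1 (0.035) and 0.41 for Dusp4 (0.033). Spry4, at -0.43, was not called (0.124). Dusp4 signal with QKItr was 6.72, 6.18 and 5.92 in pools 1, 2 and 3, and the lowest MYB construct value, 6.38, was above the last 2 of these.

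Among the 3 MYB constructs themselves no member was called in any pair, with or without the block. Over all genes each pair had 0% called by limma (MYBQKI5 against MYBtr, MYBQKI6 against MYBtr, and MYBQKI6 against MYBQKI5), with 849, 604 and 404 genes at an unadjusted p under 0.05, and 1926, 1437 and 1017 with the block, which also called none. Dusp6 had the largest gap of the members, MYBQKI5 minus MYBtr, of -0.42 (95% confidence interval -0.92 to 0.09). For Spry4 the pairs differed by -0.06 (MYBQKI5 minus MYBtr, -0.53 to 0.40), 0.01 (MYBQKI6 minus MYBtr, -0.46 to 0.48) and 0.07 (MYBQKI6 minus MYBQKI5, -0.39 to 0.54). The Spry1 intervals were wider, for example -1.09 to 0.79 for MYBQKI5 minus MYBtr, and reach about the size of the gap to eGFP.

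The single probe sets of a member gave the same signs in the genes that were called. All 7 Spry1 probe sets had a negative difference over the 3 MYB constructs, from -0.50 to -1.47, as had all 4 Spry4 probe sets, from -0.69 to -0.96, and all 17 Etv4 probe sets, from -0.29 to -1.24. All 4 Spry2 probe sets were lower as well, with a median of -0.25. Dusp6 had 3 probe sets on each side of 0, within -0.09 and 0.06, and 6 of 7 Dusp4 probe sets were higher. Probe sets of a gene share its RNA, so they are no replicates, and none was compared with another in level. In all, 78 of the 95 were lower with the MYB constructs. Genes with many probe sets weigh most in this count: it holds all 17 of Etv4 and 11 of 12 each of Spred1 and Spred2. The share of all probe sets that were lower was not counted. Of the 95, limma called none over all 269751 probe sets, where 0.356% were called, while 13 had an unadjusted p under 0.05.

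With the pool block 1 of the 95 was called, where 1.10% of all probe sets were, and it belonged to Etv1. This probe set, 17275138, gave 9.93, 10.21 and 10.64 in the eGFP pools, 8.45, 8.91 and 10.06 with MYBtr, 8.89, 9.30 and 9.89 with MYBQKI5 and 8.70, 9.05 and 10.19 with MYBQKI6. Each MYB value was below its own control, least so in pool 3. QKItr gave 9.48, 9.89 and 10.42. The difference of the 3 MYB constructs was -0.98 (SE 0.38), with a limma adjusted p over all probe sets of 0.56, or 0.021 with the block, and MYBtr alone was at -1.11 (0.65, or 0.043 with the block). The other 10 Etv1 probe sets lay between -0.41 and 0.18 and the gene mean was -0.17; a difference between this stretch and the rest of Etv1 was not tested.

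**Figure D3:**
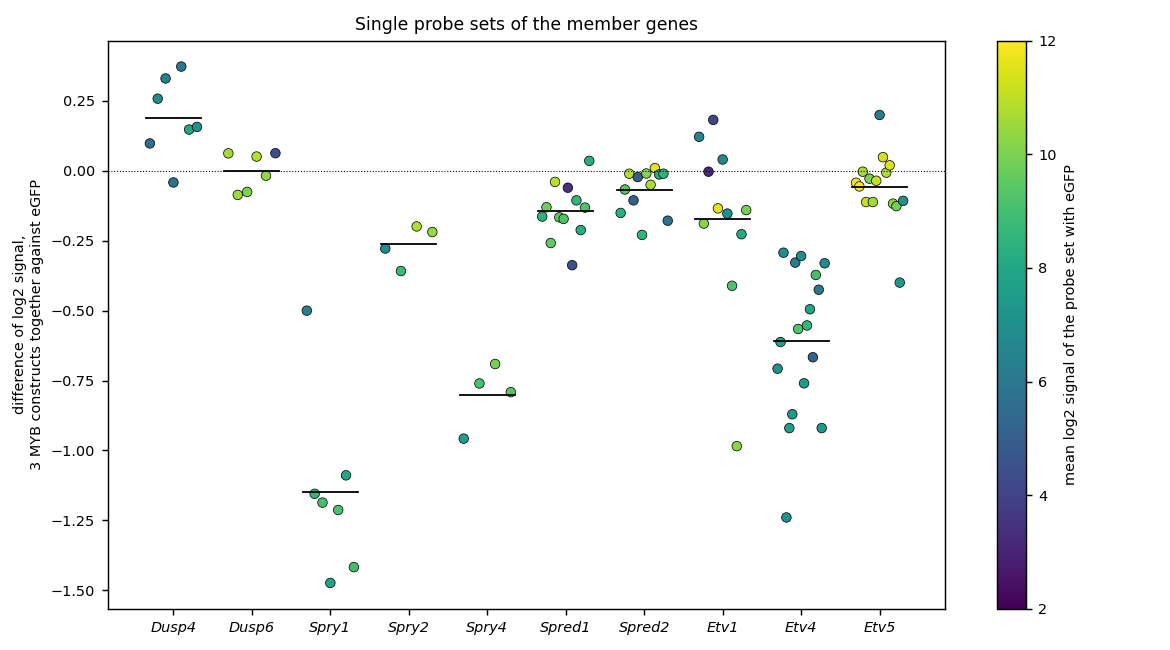
Difference of log2 signal, 3 MYB constructs together against eGFP, for each of the 95 single probe sets (points), by member, with the gene's mean as a line and the probe set's mean signal with eGFP as colour. The 7 Spry1, 4 Spry4 and 17 Etv4 points all lie below 0, and 1 Etv1 point at -0.98 lies apart from the other 10.

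Among each other, after pool means were taken away, the members varied in part together. Over the 15 construct and pool columns the Pearson correlation was 0.80 between Spry1 and Spry4, 0.79 between Spry1 and Etv4 and 0.78 between Spry1 and Spry2. Dusp6 went with Etv5 at 0.69 and against Etv4 at -0.51, and Dusp4 was at -0.38 with Spry4. With pool means left in, the values were 0.55 for Spry1 and Spry4, 0.85 for Spry1 and Etv4, 0.07 for Spry1 and Spry2, 0.73 for Dusp6 and Etv5, -0.28 for Dusp6 and Etv4 and -0.27 for Dusp4 and Spry4. The value for Spry1 and Spry2 thus depended on taking pool means away. All these values describe columns that share pools, constructs and arrays. With pool means taken away, the genes whose signal was most like the mean of the 10 members were Mtus1 (r = 0.96), Snx9 (0.94), Slc37a2 (0.93), Ubash3b (0.91) and Klf3 (0.91). With pool means left in, they were Mtus1 (0.93), Ubash3b (0.92), Synj2 (0.92), Fjx1 (0.92) and Cpne8 (0.91).

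The other genes of the pathway were counted in 6 lists of 90 genes. All values that follow are differences of log2 signal of the 3 MYB constructs together from eGFP, with adjusted p from limma. Of 15 other feedback inhibitors, Dusp7, a cytoplasmic ERK phosphatase, fell by 0.70 (adjusted p = 0.0096). With the pool block Errfi1, an inhibitor of EGF receptors, fell by 0.48 (0.012), Rasa1, a RAS GTPase activator, fell by 0.36 (0.021), and Dok1, an adaptor that recruits it, rose by 0.44 (0.047). Without the block these 3 were not called (0.065, 0.094 and 0.36). The list's median was -0.08, and the other 11, among them Dusp1, Dusp5, Spry3, Spred3 and Nf1, were called in neither fit.

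Of 16 other genes described as outputs of ERK signalling, 3 fell without the block and none rose. Fos, a subunit of AP-1, fell by 1.42 (adjusted p = 0.013), Myc, a growth-promoting transcription factor, by 0.83 (0.035) and Egr1, an early response zinc finger factor, by 0.62 (0.031). With the block Egr2, its relative, fell by 0.91 (0.0013) and Phlda1 fell by 0.42 (0.015), and without it they were not called (0.059 and 0.22). The median of the 16 was -0.22.

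Upstream, receptors and ligands went both ways. Of 13 growth factor receptors, Kit, the receptor of stem cell factor, rose by 2.77 (adjusted p = 1.1e-04) and Erbb2, a partner of the other EGF family receptors, rose by 0.63 (0.018). With the block Pdgfra, the PDGF receptor of oligodendrocyte precursors, rose by 0.67 (0.031), while the FGF receptor Fgfr3 fell by 0.78 (0.0085), the EGF receptor Egfr by 0.57 (0.034) and the neurotrophin receptors Ntrk2 and Ntrk3 by 0.69 (0.028) and 0.78 (0.0025). Without it these 5 genes had adjusted p of 0.30, 0.50, 0.11, 0.22 and 0.068 and were not called. The list's median was -0.00. Of 13 growth factors, Kitl, the ligand of Kit, rose by 1.31 (0.011), and Fgf1, an FGF ligand, and Pdgfc, a PDGF ligand, fell by 1.27 (0.021) and 0.45 (0.041). With the block Tgfa, an EGF receptor ligand, fell by 0.50 (0.0083), and without it the adjusted p was 0.615. The median of the growth factors was -0.06.

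Of 19 genes of the core cascade, from the adaptors Grb2 and Sos1 to Map2k1 and Mapk3, 1 was called in either fit: Shc4, an adaptor of the Shc family, fell by 1.46 (limma adjusted p = 0.0080). The median of the 19 was -0.05. Of 14 other ETS factors and Cic with its partners, Ets1 fell by 0.97 (0.021), Elk3, a factor that works with the serum response factor, rose by 0.65 (0.024), and Atxn1, a partner of Cic, rose by 0.61 with the block alone (0.0093, against 0.26 without). The median was -0.04. Cic itself was called in neither fit. In all 6 lists these counts stand beside 2.00% of all genes called without the block and 7.07% with it.

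**Figure D4:**
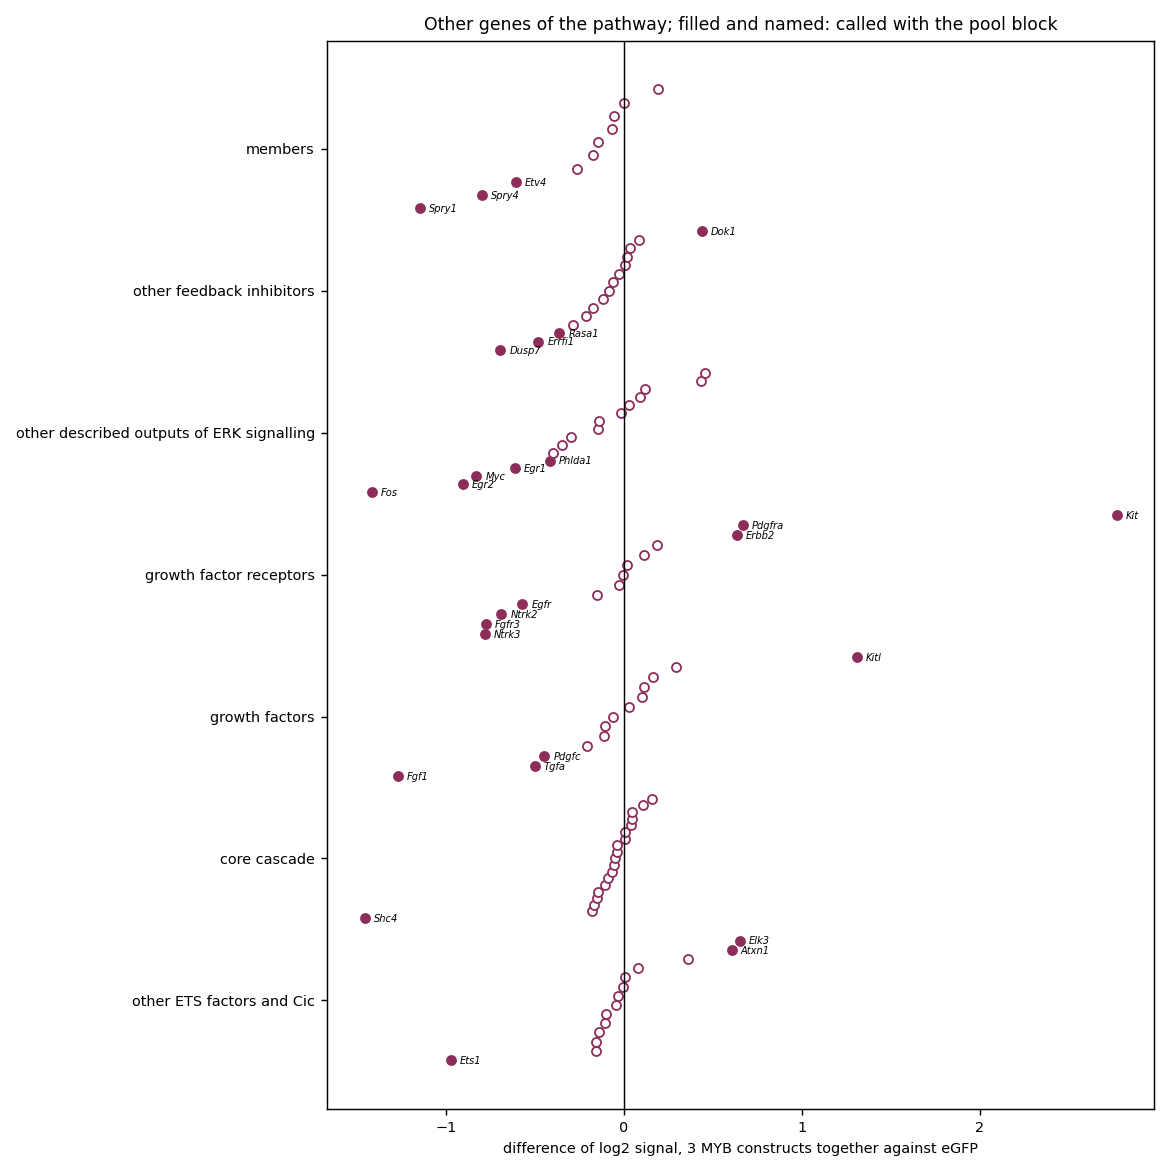
Difference of log2 signal, 3 MYB constructs together against eGFP, for the 10 members and the 6 other lists of pathway genes; each point is a gene, in order of its difference within a list, and filled, named points were called with the pool as a block. Kit at 2.77 lies farthest to the right and Shc4 at -1.46 farthest to the left.

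Some markers of oligodendrocyte precursors, astrocytes and stem cells also differed between the MYB constructs and eGFP. The mean signal of 6 oligodendrocyte precursor markers was 7.77 to 8.08 over the eGFP pools and 7.80 to 8.17 with QKItr, but 7.12 to 7.47 with MYBtr, 7.35 to 7.45 with MYBQKI5 and 7.23 to 7.46 with MYBQKI6. Of the 6, Olig2 and Cspg4 fell over the 3 MYB constructs (limma adjusted p = 0.021 and 0.0080), and with the pool block Olig1 and Lhfpl3 fell as well while Pdgfra rose. Of 6 astrocyte markers 4 had a negative difference and the others a positive one. Gfap fell (0.014), and with the block also Aqp4 and S100b. The astrocyte list's mean was 6.70 to 7.09 with eGFP and 6.07 to 6.78 over the MYB constructs. Of 7 stem cell markers Nes fell (0.017) and Vim rose (0.048), while the list's mean, 8.13 to 8.34 with eGFP, was 7.93 to 8.41 with the MYB constructs. No neuron, microglia or vascular marker was called in this comparison, and the microglia mean was 4.05 to 4.42 over all first-set columns. Beside the marker calls, 2.00% of all genes were called without the block and 7.07% with it. The part of these cell type markers in the differences of Spry1, Spry4 and Etv4 was not tested.

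In the suppression set, where every sample carried MYBQKI6, no member was called between Qk and LacZ suppression, with or without a block for the second sample number. Over all genes limma called 1 gene, or 0.00432%, in either fit, while 946 had an unadjusted p under 0.05 without the block and 1734 with it. Qk itself was 9.48 ± 0.17 (SD, n = 5) with Qk suppression and 9.71 ± 0.03 (n = 3) with LacZ suppression, a difference of -0.22 that was not called (limma adjusted p = 1.0, or 0.73 with the block). All 8 samples carried MYBQKI6, and whether its QKI part adds to this signal was not tested, so the values do not measure the cells' own Qk alone or check its suppression. The median difference of the 10 members was -0.11, beside 0.03 over all genes. None of the 90 other pathway genes was called here in either fit.

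Spry4 varied most between these samples. It was 9.16 in sample 5_2, 7.99 in 6_1, 7.95 in 6_3, 7.10 in 9_1 and 8.25 in 9_3 with Qk suppression, and 7.72, 9.15 and 8.13 in samples 1, 2 and 3 with LacZ suppression. The samples with the second number 2, 1 in each group, were high, and the groups overlapped. The difference of -0.24 had an SE of 0.41 and a 95% confidence interval of -1.14 to 0.66. It was 0.00 without sample 9_1, -0.51 without 5_2, -0.55 without LacZ sample 1, 0.17 without LacZ sample 2 and -0.07 with the block. Spry1 gave 7.99, 7.86, 7.74, 7.48 and 7.88 with Qk suppression, in the same order, and 7.81, 8.29 and 7.60 with LacZ suppression, a difference of -0.11 (-0.52 to 0.30). Etv4 gave 6.38, 6.24, 6.11, 5.83 and 6.37, against 6.11, 6.55 and 6.21, a difference of -0.10 (-0.49 to 0.28).

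The other members overlapped as well. Dusp6 ran from 9.15 to 10.45 with Qk suppression, with a median of 10.20, and from 9.96 to 10.47 with LacZ suppression, a difference of -0.24 (95% confidence interval -0.84 to 0.35) that was -0.03 without sample 9_1. Dusp4 ran from 5.84 to 6.76 and from 6.07 to 6.76, a difference of -0.02 (-0.51 to 0.48). Sample 9_1 had the lowest value of the 8 for Dusp4, Dusp6, Spry1, Spry4 and Etv4. Etv1 had the largest difference of the 10, -0.28 (-0.62 to 0.07), with 6.87 to 7.21 against 7.11 to 7.56. The size and sign for Etv1 depended on the probe sets: their median difference was -0.05, 1 of the 11 stood at -1.79, and the brightest, 17275129, was at 0.08 (0.14 with the block). Spred1 was at -0.21 (-0.60 to 0.19), Spred2 at 0.20 (-0.25 to 0.66), Spry2 at 0.02 (-0.29 to 0.34) and Etv5 at -0.01 (-0.34 to 0.33).

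**Figure D5:**
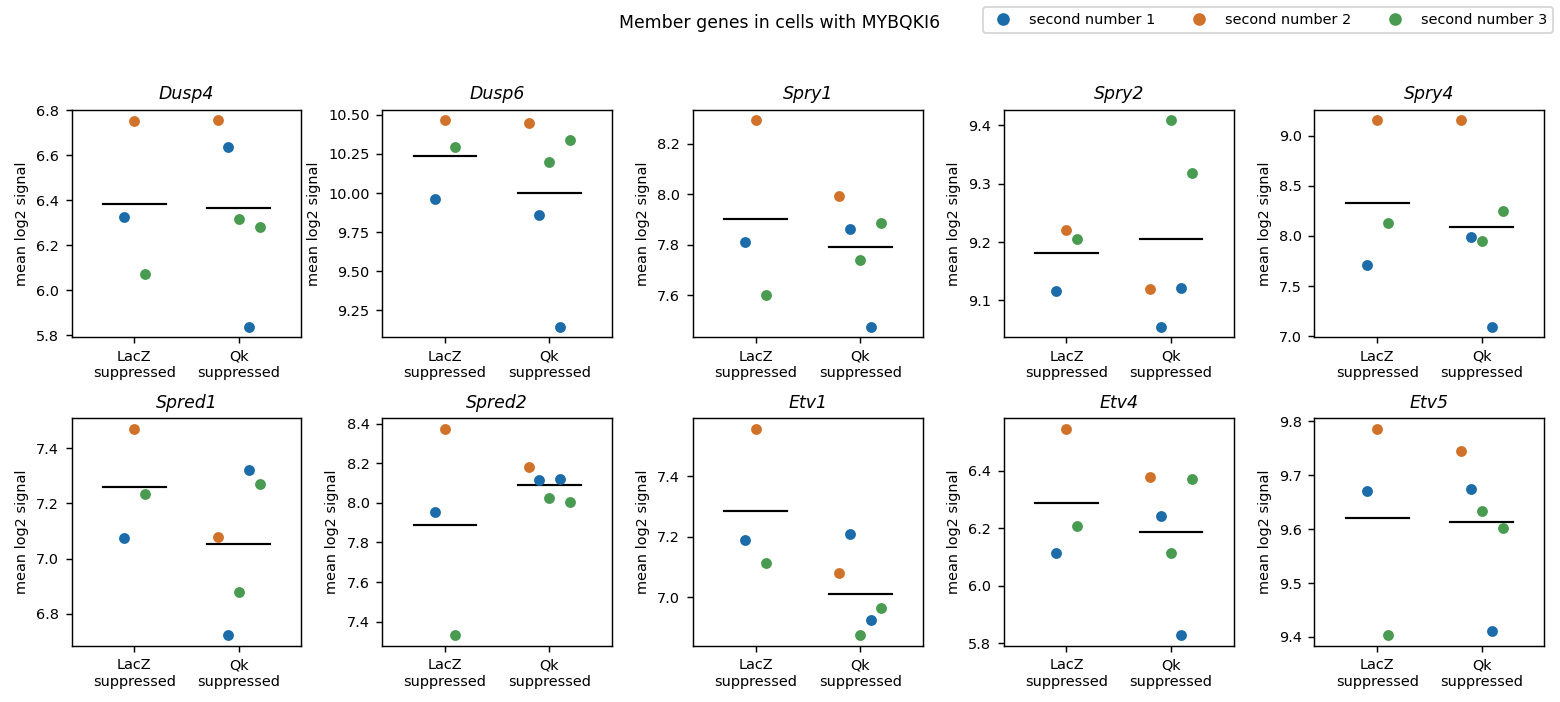
Mean log2 signal of each member in the 8 samples with MYBQKI6, by suppressed gene, 1 panel per gene with its own axis range; points are samples coloured by the second number of the label and black lines are group means. The groups overlap in every panel, and in the Spry4 panel the samples with the number 2, at 9.16 and 9.15, lie above the other 6.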

How the data were processed

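Per the labels, total RNA was biotin-labelled and read on Affymetrix arrays. The authors deposited log2 values (0.22 to 14.6) for 269751 probe sets in 26 samples. Normalization is not given in the sources used here. The platform annotation gave 1 gene for 233753 probe sets, several for 5106 and none for 30892, and only the first kind entered gene values. Fits of single probe sets were adjusted over all 269751. Symbols were matched to RefSeq: 20875 were current, 2247 were updated and 30 had no match. A gene's value was the mean over its probe sets, with no filter on dim signal.

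The eGFP repeats of a pool were averaged. Group means of the resulting 15 columns, and apart from them of the 8 suppression arrays, were fitted in limma 3.58.1 (lmFit and eBayes, R 4.3.3, data.table, version 1.17.8), with Benjamini-Hochberg adjustment over all genes. Figures used matplotlib 3.10.9, pandas 2.3.3 and Python 3.11.15. The code was tested on simulated data. Whether pools or numbered samples were separate animals or cultures is not in the labels. The p-values then measure only how far these samples spread, which may be technical.

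Samples sharing a number were alike after group means were removed. In the pool set 30 such pairs had r of 0.31 to 0.72, and in the suppression set 5 pairs had 0.22 to 0.57, against medians of -0.23 and -0.21 for other pairs. Removing group means makes other pairs negative where pairs of the same number are positive, so these medians are no separate baseline. Values from a fit blocked on the number are therefore given beside the results they change.

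The members and lists were chosen with earlier results of these data known. Some list genes are not reported here. All members were named. Genes of the 6 pathway lists were named where called without the block, and those called with the block, like the markers, were named after their values were seen. Likeness was the highest correlation with the mean of the 10 centred members. Alternatives were the block, probe set summaries, dim probe sets left out (25th percentile), quantile normalization, single eGFP repeats and leaving out each sample.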

Additional observations from a re-analysis of the deposited data

Results flagged for a closer look

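Dusp4 signal in 1 of the 6 eGFP arrays, the first repeat of pool 3, was 6.23, below the other 5. Its gap to the nearest array was 0.64 of the group's range, above Dixon's 95% critical value of 0.625. In all, 20 groups (10 members in the eGFP arrays and in the Qk suppression samples) were examined, and chance marks about 1 in 20.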

How the results depend on the processing

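Of 1550 alternative values of the members' differences, 1522 kept the side of the threshold and 0 called values turned their sign. Signs turned in 167 values, none of them called before or after. The differences they turned from, in the fit without the block, were at most 0.28 in size. The turned values could be larger, for example -0.37 for Spry1 with MYBQKI6 minus MYBQKI5. The replicate block (pool number) moved the members called from 0 to 2 with MYBtr, 0 to 2 with MYBQKI5, 0 to 2 with MYBQKI6, 1 to 3 for the 3 together, 0 to 3 against QKItr, and single probe sets from 0 to 1. It changed no other call of a member. With the block and without pool 1, the MYBtr count was 1. With the block and without pool 3, it was 1 with MYBtr, 1 with MYBQKI5 and 1 with MYBQKI6. With the block and without pool 2, the count for the 3 together was 0. That count was also 0 with the median of probe sets (Spry4 adjusted p = 0.057) and with the probe set of highest mean (0.19), and 0 to 1 when 1 sample was left out. With the block and the brightest probe set of each gene, no call of a member with a single construct held. In that fit the calls of Spry4 and Etv4 for the 3 together were also lost. Etv4 was called for the 3 together in 1 of 23 alternative settings, the block. The blocks without a pool, the block with the brightest probe set and the comparison with QKItr were chosen after seeing the data. The cause of these changes was not tested. Fewer samples leave wider intervals, and with 3 pools per construct and 8 suppression samples a missed call is no sign of equal levels.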
